A study of Mus musculus with 16 samples.

Results

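The comparison set one NOD mouse line of induced pluripotent stem (iPS) cells, EpiSC-like iPS line 6, against one NOD mouse embryonic stem (ES) cell line, EpiSC-like ES line 1. Its members were the 6 of 16 arrays in the series whose titles name these lines: the iPS line at passages 7 and 12, and the ES line at passages 5, 7, 9 and 10. Both lines carry the same strain label, NOD (the non-obese diabetic mouse), and the same state label, EpiSC-like, and they differ in origin, reprogrammed cells on one side and ES cells on the other. Each origin is represented by 1 line, so origin and line cannot be told apart, and the arrays of a line are passages of that line. P-values therefore measure the spread between arrays, not between independently made lines. The labels name no treatment, genotype or medium for these lines and do not say how the iPS line was reprogrammed. The rest of the series comprised 2 arrays of epiblast stem cells (EpiSC, labelled non-NOD, passages 12 and 20), 3 of NOD ES cells, 2 of iPS lines named after EpiSC and 3 of ES cells labelled 129. RNA of the EpiSC and of both EpiSC-like lines came from colonies that were separated mechanically from their surroundings, whereas ES cells were freed of feeder fibroblasts by preplating.

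Mouse pluripotent cells are grown in a naive or a primed state. Naive ES cells resemble the blastocyst and depend on leukaemia inhibitory factor (LIF) and STAT3, whereas EpiSC resemble the post-implantation epiblast, depend on fibroblast growth factor (FGF) and Activin or Nodal signals, and express Fgf5, Dnmt3b, Otx2 and low levels of primitive streak genes such as T (Brachyury). FGF acts through the kinase ERK, which within minutes induces immediate early transcription factors (the Egr and Fos families) and then the feedback inhibitors of its own pathway (Sprouty, Spred and dual-specificity phosphatase genes). Reprogramming of somatic cells with Pou5f1, Sox2, Klf4 and Myc can yield iPS cells in either state.

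Every value below is log2 of the array's processed signal minus the 75th percentile of that array, so 0 is the brightness that 25% of the gene spots exceed, and a difference of 1 is a factor of 2. Values are listed in the order passage 7 and passage 12 for the iPS line, and passages 5, 7, 9 and 10 for the ES line. A gene was called when its Benjamini-Hochberg adjusted p over all 23116 genes in limma was under 0.05, and higher and lower refer to the iPS line relative to the ES line. Where no member of a list was called in a direction, the number at an unadjusted limma p under 0.05 in that direction stands in parentheses. Members of a list beyond the 6 that the naming rule takes were chosen after their values were seen. The iPS arrays were dimmer: their 75th percentiles of processed signal were 328.7 and 189.2, against 558.1 to 1028.6 in the ES line. The share of spots for genes that stood well above background was 69.4% and 65.2% in the iPS line and 56.8% to 88.5% in the ES line. The 6 arrays lay on 5 slides, and only slide 1 held both lines, each at passage 7. The 3 NOD ES arrays and the 2 arrays of iPS lines named after EpiSC each lay nearer, on average, to the other of these groups than to their own, by the most for 1 NOD ES array (mean SD of log2 differences 0.814 against 1.139) and 1 array of those iPS lines (0.573 against 0.965). All 5 enter the tests through the shared spread, and also through the choice of genes tested and of each gene's probe. A gene that varied within other groups could therefore stay uncalled although the iPS and ES lines did not overlap. Without the NOD ES array and the array of those iPS lines that did so by the most, 11655 genes were called in place of 5919. In the fit of the 6 arrays of both lines alone 8418 were called. Markers of other cells were present in both lines. All 22 fibroblast markers were well above background on all 6 arrays, and the log2 of their summed signal was 9.80 and 9.87 in the iPS line and 9.78 to 10.31 in the ES line, above the 9.26 and 9.16 of EpiSC. The 13 measured macrophage and blood markers summed to 8.17 and 7.89 in the iPS line and 7.05 to 7.42 in the ES line, against 1.28 and 1.22 in EpiSC. The part of such cells in the differences below was not tested, and in RNA of mixed cultures fewer cells of a type and less RNA per cell cannot be told apart.

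The iPS and ES lines differed at 5919 of 23116 genes (25.6%), of which 3196 (13.8% of genes tested) were higher and 2723 (11.8%) were lower in the iPS line. These shares of 13.8% and 11.8% are the background for the list counts below. The values of both lines did not overlap for 5887 of the 5919, and for 12838 of all 23116 genes tested. The median gene was 0.27 higher in the iPS line, and under quantile normalization 0.12 higher with 2701 genes called higher and 3361 lower, so the split between directions depended on the scaling. The number called was 2473 without the iPS array at passage 12, 4850 without that at passage 7 and 2150 with slide as a fixed block. Between the passage 7 arrays on slide 1 the median gene was 0.18 higher in the iPS line. Under normexp background correction the median gene was 0.72 higher, the baseline for every list median given under normexp below.

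The distance between a pair of arrays was taken as the SD of their log2 difference over probes well above background on both. It was 0.60 between the iPS arrays and 0.34 to 0.60 within the ES line. Between the iPS and ES lines the 8 pairs lay at 1.06 to 1.25, beyond every pair within a line. The ES line lay at 0.80 to 0.94 from EpiSC, cells of another strain label, and so each of its pairs with EpiSC was closer than any of its pairs with the iPS line. The iPS line lay at 1.13 to 1.40 from EpiSC. From NOD ES cells the distances were 1.41 to 1.54 for the iPS line and 1.33 to 1.52 for the ES line, ranges that overlap. Both lower ends came from a NOD ES array with 26.3% of gene spots well above background, over 10204 and 10093 probes. The probes compared differ from pair to pair, so the distances do not rest on a common set.

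**Figure D1:**
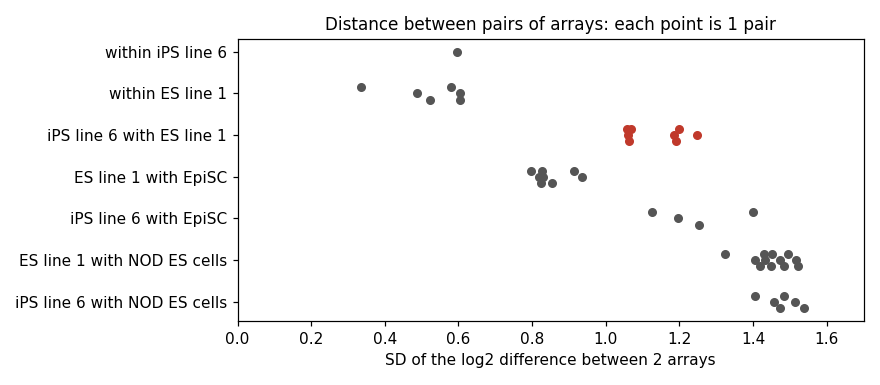
Distance between pairs of arrays, as the SD of the log2 difference over probes well above background on both arrays; each point is 1 pair, grouped by which lines the pair joins. Pairs of the iPS and ES lines lie at 1.06 to 1.25, above the pairs within either line and above the pairs of the ES line with EpiSC.

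**Figure D2:**
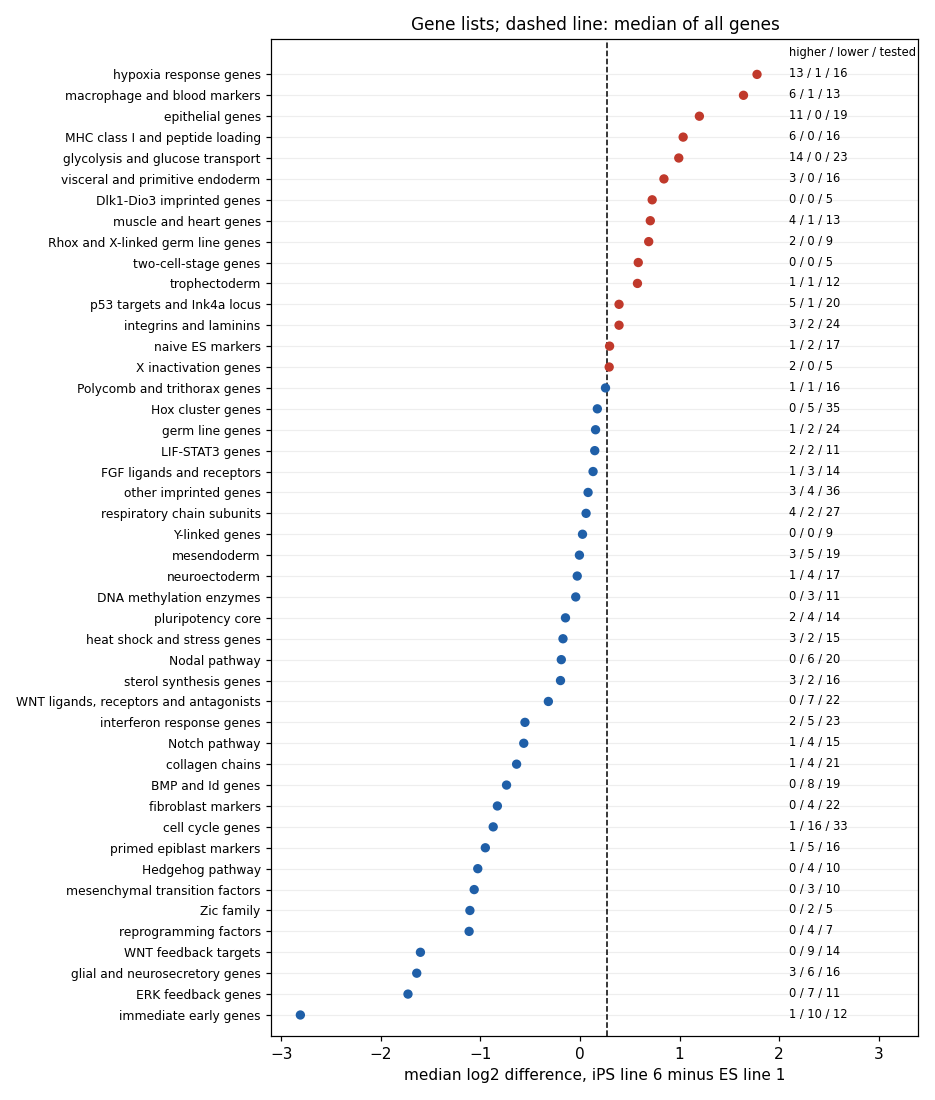
Median log2 difference, iPS line minus ES line, of each gene list (points) with the number of members called higher and lower over the number tested, and the median of all genes (dashed line at 0.27). Hypoxia genes stand highest and immediate early genes lowest.

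Immediate early genes were the group with the lowest median. Of 12 measured, 10 were lower and 1 was higher in the iPS line, and the median difference was -2.81, against 0.27 for all genes, of which 11.8% were called lower. Egr2, a zinc finger transcription factor (probe at chr10:67145376-67145435, build mm7), stood at -3.42 and -3.23 in the iPS line and 3.09, 3.21, 3.05 and 3.06 in the ES line. The values within each line spanned less than 0.2 log2 units and were far apart between the lines. The difference was -6.43 ± 0.24 (SE, adjusted p = 3.3e-07), or 86.1-fold lower. Egr1, a widely used reporter of ERK activity, stood at 0.56 and 0.08 in the iPS line and 5.74, 6.37, 5.63 and 5.81 in the ES line, a difference of -5.57 ± 0.25 (SE, adjusted p = 7.5e-07). Egr3 was measured above background on 1 of 2 iPS arrays and on all 4 ES arrays, at -6.43 and -5.58 in the iPS line and 0.48, 0.62, 0.45 and 0.34 in the ES line. Fos, the partner of Jun in the AP-1 factor, stood at 0.30 and -0.41 in the iPS line and 4.47, 4.79, 4.52 and 4.54 in the ES line, a difference of -4.63 ± 0.39 (SE, adjusted p = 2.6e-05). The other members called lower were Fosb (-4.03), Jun (-2.99), Ier2 (-2.63), Fosl1 (-2.08), Atf3 (-2.07) and Junb (-1.70). Egr4 (-5.65) and the pseudokinase gene Trib1 (-4.41), which are outside the list, were among the 15 genes lowered most. Ier3 differed by -1.19 (adjusted p = 0.053) and was not called. The one member called higher, the AP-1 gene Fosl2, stood at 2.50 and 4.39 in the iPS line and -1.76, -1.58, -1.72 and -0.95 in the ES line. Its difference was 0.84 (adjusted p = 0.356) with the mean over all its probes. Fosl2 was no longer called without the iPS array at passage 12 (adjusted p = 0.0528).

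In EpiSC Egr1 stood at 5.61 and 5.64 and Egr2 at 2.81 and 2.93, a comparison that was not tested. The plot of signalling genes by array shows the iPS arrays apart from all 6 arrays of the ES line and EpiSC. Feedback genes of ERK were lower as well. Of 11 measured, 7 were lower and none higher (0), with a median of -1.73. Spry2 (Sprouty 2) stood at -0.83 and -0.85 in the iPS line and 1.58, 1.78, 1.46 and 1.26 in the ES line, a difference of -2.36 ± 0.43 (SE, adjusted p = 0.003). Dusp6, the phosphatase that removes the activating phosphates of ERK, stood at 2.42 and 2.29 in the iPS line and 4.48, 4.47, 4.36 and 4.14 in the ES line, a difference of -2.01 ± 0.41 (SE, adjusted p = 0.005). Spred2 (-2.37), Spry1 (-1.94) and Dusp4 (-2.03) were also lower, while the ETS factors Etv4 and Etv5 differed by 0.30 (adjusted p = 0.502) and 0.08 (adjusted p = 0.845). The count fell to 4 without the iPS array at passage 12, and to 2 with slide as a fixed block. The immediate early count was 9 with that block and 7 with normexp background correction. Spry2 differed by -0.76 (adjusted p = 0.131) with the mean over all its probes. Dusp4 was no longer called without the iPS array at passage 12 (adjusted p = 0.0767).

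**Figure D3:**
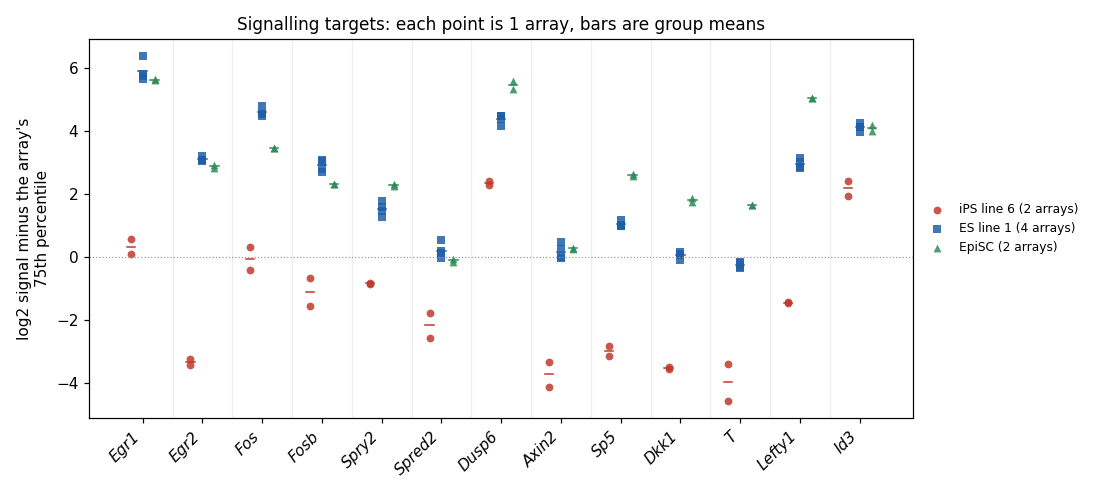
Log2 signal relative to the array's 75th percentile for genes of ERK, WNT and Nodal signalling in each array of the iPS line (2), the ES line (4) and EpiSC (2). For every gene shown both iPS arrays lie below all 4 ES line arrays and both EpiSC arrays.

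Direct targets of WNT signalling, which acts through beta-catenin and is itself active in EpiSC cultures, were lower. Of 14 measured, 9 were lower and none higher (0), with a median of -1.60. Sp5, a transcription factor induced by beta-catenin, stood at -2.83 and -3.13 in the iPS line and 0.97, 1.17, 1.02 and 0.98 in the ES line, a difference of -4.02 ± 0.68 (SE, adjusted p = 0.002). Axin2, the scaffold protein that dampens the pathway, stood at -3.32 and -4.12 in the iPS line and -0.03, 0.46, 0.24 and 0.00 in the ES line and was above background on 1 of 2 iPS arrays. Dkk1, a secreted inhibitor, differed by -3.57 ± 0.45 and was also above background on 1 of 2 iPS arrays, and T differed by -3.72 ± 0.36. The count was 4 without the iPS array at passage 7 and 5 without the iPS array at passage 12. Among ligands, receptors and antagonists 7 of 22 were lower and none higher (1). The receptor gene Fzd10 had the largest difference: it stood at -2.77 and -2.76 in the iPS line and 1.77, 2.06, 1.69 and 1.45 in the ES line, or 22.7-fold lower. Fzd3 (-2.68), Fzd1 (-3.09), Wnt5b (-2.25) and the antagonists Wif1 (-2.89) and Sfrp1 (-2.68) were also lower, and this count was 4 without the iPS array at passage 12. The list's median of -0.32 was 0.10 under normexp background correction, below the 0.72 of all genes in that setting. The receptor antagonist gene Rnf43, itself a WNT target, was not called at 0.38 and 0.28 in the iPS line and -0.88, -0.92, -1.03 and -0.91 in the ES line. Fzd1 and Sfrp1 were no longer called without the iPS array at passage 12 (adjusted p = 0.0618 to 0.14). Wif1 was no longer called without the iPS array at passage 7 or 12 (adjusted p = 0.0598 to 0.0606).

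Nodal signalling, through SMAD2 and SMAD3, sustains the primed state. 6 of 20 genes of the pathway were lower and none higher (0), and the median of -0.19 was -0.39 under quantile normalization. The 6 were the antagonists Lefty1, Lefty2 and Cer1, the ligand gene Gdf3, which was above background on neither iPS array and 3 of 4 ES arrays (at least 3.14-fold lower), the transducer Smad3 (-1.49) and the SMAD repressor Skil (-1.31). Lefty1 stood at -1.44 and -1.47 in the iPS line and 3.13, 2.87, 2.99 and 2.83 in the ES line, a difference of -4.41 ± 0.79 (SE, adjusted p = 0.002), and EpiSC were higher still at 5.02 and 5.03. Lefty2 differed by -2.03 ± 0.31 (SE, adjusted p = 0.00082), and Cer1, a secreted antagonist of Nodal, BMP and WNT, by -3.60 ± 1.02 (SE, adjusted p = 0.025). Nodal itself stood at -1.27 and -0.73 in the iPS line and -0.08, -0.06, -0.03 and -0.13 in the ES line; its difference of -0.93 (adjusted p = 0.099) was not called. The transducer Smad2 (-0.08), the receptor genes Acvr1b (-0.04) and Acvr2a (-0.18) and the forkhead cofactor Foxh1 (0.55) were not called either. The count was 3 without the iPS array at passage 7 and 2 without the iPS array at passage 12. Skil was no longer called without the iPS array at passage 12 (adjusted p = 0.134). Cer1 was no longer called without the iPS array at passage 7 or 12 or the ES array at passage 7 (adjusted p = 0.0501 to 0.119). Gdf3 was no longer called without the iPS array at passage 7 or 12 or the ES array at passage 5 or 9 (adjusted p = 0.0558 to 0.179). Smad3 was no longer called without any 1 of the 6 arrays (adjusted p = 0.06 to 0.365).

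Of 19 BMP and Id genes 8 were lower and none higher (0), with a median of -0.74. Id1, Id2 and Id3 encode inhibitors of basic helix-loop-helix factors and are induced by BMP. Id3 stood at 2.41 and 1.95 in the iPS line and 4.26, 3.96, 4.12 and 4.11 in the ES line, a difference of -1.94 ± 0.30 (SE, adjusted p = 0.00088), while Id1 differed by -1.23 ± 0.26 (SE, adjusted p = 0.006). The ligand gene Bmp4 (-1.40) and the receptor genes Bmpr1a (-1.10) and Bmpr2 (-1.30) were lower, as were Id2 (-0.97), Smad5 (-0.74) and the pseudoreceptor gene Bambi (-1.39). Bmp7 (0.13) and Smad1 (0.48) were not called. Without the iPS array at passage 12 this count was 1, and 4 without that at passage 7. In the Hedgehog pathway 4 of 10 genes were lower and none higher (1). The ligand gene Shh was well above background on all 4 ES arrays and neither iPS array, which makes it at least 37.3-fold lower. The receptor and target gene Ptch1 differed by -2.46 ± 0.48, Gli2, above background on 1 of 2 iPS arrays, by -2.86 ± 0.76 and Gli3 by -2.09 ± 0.34. The count was 2 without the iPS array at passage 12, and the list's median of -1.03 turned to 0.79 under normexp background correction. In the Notch list 4 of 15 were lower, among them the receptor gene Notch2 (-1.69), the ligand genes Jag1 (-1.57) and Dll3 (-1.75) and the target Nrarp, which was at least 7.9-fold lower. Jag2, another ligand gene, was higher at -0.50 and -0.88 in the iPS line and -4.11, -4.86, -3.57 and -3.49 in the ES line. The Notch median of -0.56 was 0.44 under normexp. With a median of 0.72 for all genes there, the Notch list still lay below all genes and the Hedgehog list lay near them. Notch2 differed by -0.06 (adjusted p = 0.91) with the mean over all its probes. By the same measure Bmpr1a changed sign, Bmpr2 differed by -0.497 (adjusted p = 0.417) and Id2 by -0.768 (adjusted p = 0.15). Nrarp was no longer called without the iPS array at passage 7 (adjusted p = 0.0531). Bmpr1a, Bmpr2, Id1, Jag1 and Ptch1 were no longer called without the iPS array at passage 12 (adjusted p = 0.0555 to 0.161). Bambi, Bmp4 and Gli2 were no longer called without the iPS array at passage 7 or 12 (adjusted p = 0.0517 to 0.166). Smad5 was no longer called without the iPS array at passage 7 or 12 or the ES array at passage 5 or 7 (adjusted p = 0.053 to 0.159). Id2 was no longer called without any 1 of the 6 arrays (adjusted p = 0.0711 to 0.33).

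Among reprogramming factors 4 of 7 were lower and none higher (0). Pou5f1 (Oct4), the central factor of both pluripotent states (probe at chr17:33612047-33612107, build mm7), stood at -4.34 and -3.32 in the iPS line and -1.37, -1.43, -1.04 and -0.53 in the ES line. The lines did not overlap, and Pou5f1 was well above background on 1 of 2 iPS arrays and all 4 ES arrays. The difference was -2.74 ± 0.68 (SE, adjusted p = 0.013). Pou5f1 was higher in EpiSC, at 0.96 and 0.35, and in NOD ES cells, at 2.26, 4.44 and 3.77, so that both EpiSC-like lines lay below every array of these groups; this comparison was not tested. Sox2 stood at 0.06 and 0.07 in the iPS line and 2.37, 2.10, 2.52 and 2.22 in the ES line, a difference of -2.24 ± 0.59 (SE, adjusted p = 0.018). Myc (-1.73 ± 0.26) and Mycn (-1.11 ± 0.28) were lower too, though Mycn differed by -0.362 (adjusted p = 0.473) with the mean over all its probes. Klf4 differed by -0.98 (adjusted p = 0.320), Nanog by -0.06 (adjusted p = 0.968) and Lin28a by -0.14 (adjusted p = 0.653), and none of them was called. Pou5f1 was no longer called without the iPS array at passage 7 (adjusted p = 0.0992). Mycn was no longer called without the iPS array at passage 12 (adjusted p = 0.175). Sox2 was no longer called without the iPS array at passage 7 or 12 (adjusted p = 0.0724 to 0.115).

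The pluripotency core held 2 genes that were higher and 4 that were lower among 14. Among those lower besides Pou5f1 and Sox2, the RNA-binding protein gene Lin28b stood at -3.74 and -3.91 in the iPS line and -1.13, -1.57, -1.28 and -0.94 in the ES line, a difference of -2.60 ± 0.23 (SE, adjusted p = 3.5e-05), and was above background on 1 of 2 iPS arrays. Dppa2 was higher at -0.16 and 1.08 in the iPS line and -1.04, -0.83, -0.46 and -0.79 in the ES line, and Rif1, a telomere and replication timing factor, at 0.22 and 1.07 in the iPS line and -0.59, -0.18, -0.77 and -0.65 in the ES line. Sall4 (-0.96), Tdgf1 (-0.19), Zfp281 (-0.15), Foxd3 (0.85) and Utf1 (1.13) were not called, nor was Dppa4, which was above background on no iPS array and 1 ES array. With the iPS array at passage 7 left out 2 core genes and 2 reprogramming factors were called lower, and with that at passage 12 left out there were 2 and 2. Under normexp the core median of -0.15 was 0.54, and that of the reprogramming factors went from -1.11 to 0.07. Both lay below the 0.72 of all genes in that setting. With the mean over all probes Lin28b differed by -0.69 (adjusted p = 0.54) and Rif1 by 0.074 (adjusted p = 0.806). Dppa2 was no longer called without the iPS array at passage 12 (adjusted p = 0.284). Rif1 was no longer called without the iPS array at passage 12 or the ES array at passage 9 (adjusted p = 0.0519 to 0.275).

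Of 16 primed epiblast markers measured, 5 were lower and 1 was higher, with a median of -0.95. Fgf5, the defining growth factor gene of the post-implantation epiblast (probe at chr5:97491844-97491903, build mm7), stood at -2.19 and -2.12 in the iPS line and 1.06, 1.31, 1.16 and 0.95 in the ES line. All iPS values lay more than 3 log2 units below all ES values, and the difference was -3.27 ± 0.34 (SE, adjusted p = 8e-05), or 9.68-fold lower. EpiSC stood at 3.02 and 3.00. Dnmt3b, the de novo DNA methyltransferase, followed the same order, at -2.41 and -2.55 in the iPS line and 0.69, 0.83, 0.77 and 0.84 in the ES line and 2.68 and 2.84 in EpiSC, with a difference between the lines of -3.26 ± 0.32 (SE, adjusted p = 5e-05). Sall2 (-1.23) and, near the threshold, Lef1 (-2.00) and Zic2 (-1.21, above background on 1 of 2 iPS arrays) were lower. The claudin gene Cldn6 was higher, at 1.94 and 1.70 in the iPS line and -0.01, -0.14, -0.27 and -0.02 in the ES line, a difference of 1.93 ± 0.28 (SE, adjusted p = 0.00059). The other members were not called: Otx2 differed by -0.98 (adjusted p = 0.188), Pou3f1 (Oct6) by 0.51 (adjusted p = 0.191), Foxa2 by -0.45 (adjusted p = 0.479) and Sox11 by 0.27 (adjusted p = 0.519), and Cdh2 (-1.42), Sfrp2 (-0.79), Sox3 (0.72) and Fst (0.84) were not called either, nor was Zic5, which was above background on no iPS array and 1 ES array. The number called lower was 3 without the iPS array at passage 7, 2 without that at passage 12, 3 without the ES array at passage 7 and 3 without that at passage 9. Sall2 was no longer called without the iPS array at passage 12 (adjusted p = 0.183). Zic2 was no longer called without the iPS array at passage 7 or 12 or the ES array at passage 7 or 9 (adjusted p = 0.0665 to 0.163). Lef1 was no longer called without any 1 of the 6 arrays (adjusted p = 0.0627 to 0.265).

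Mesendoderm genes, which mark the primitive streak, divided. T stood at -4.57 and -3.38 in the iPS line and -0.34, -0.31, -0.16 and -0.20 in the ES line and in EpiSC at 1.66 and 1.63. Gsc (goosecoid), an organizer gene, stood at -2.61 and -2.80 in the iPS line and 0.79, 0.95, 0.81 and 0.59 in the ES line, a difference of -3.49 ± 0.38 (SE, adjusted p = 0.00011). Hhex (-1.82), Lhx1 (-1.44) and Cer1 were also lower, whereas Tbx6, a gene of paraxial mesoderm, was higher at 0.02 and -0.09 in the iPS line and -2.32, -1.88, -2.40 and -2.28 in the ES line, a difference of 2.18 ± 0.24 (SE, adjusted p = 0.00011). In all 5 of 19 were lower and 3 were higher, and 3 were lower with the iPS array at passage 7 or 12 left out. Naive ES markers showed 1 higher (5.88%) and 2 lower (11.8%) of 17, no more than the 13.8% and 11.8% of all genes. Gbx2, a homeobox target of STAT3, was well above background on all 4 ES arrays and neither iPS array, at least 13.4-fold lower. Gdf3 was the other gene called lower. Klf2 was higher at 7.63 and 8.68 in the iPS line and 7.49, 6.47, 7.34 and 6.21 in the ES line, and its difference turned to -0.33 in the deposited value table. The difference of Klf2 also changed sign with the mean over all its probes. Of the 17, 9 were well above background on all 6 arrays. Tfcp2l1, a transcription factor gene of naive cells, stood at 0.06 and 0.02 in the iPS line and -2.08, -1.88, -1.48 and -1.88 in the ES line without overlap, and its difference of 1.87 (adjusted p = 0.249) was not called. Dppa3 and Nr0b1 were well above background on none of the 6 arrays, and Zfp42 (Rex1) on none of the iPS arrays and 1 ES array. Lhx1 was no longer called without the iPS array at passage 7 (adjusted p = 0.064). Hhex was no longer called without the iPS array at passage 12 (adjusted p = 0.0681). Klf2 was no longer called without the iPS array at passage 12 or the ES array at passage 7 or 10 (adjusted p = 0.0606 to 0.365).

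The FGF and LIF-STAT3 lists had medians of 0.13 and 0.15, near the 0.27 of all genes, and 4 of 14 and 4 of 11 members called, where 25.6% of all genes were. In the FGF list 3 were lower and 1 was higher. Besides Fgf5 the receptor genes Fgfr1 (-0.97 ± 0.31) and Fgfr2 (-1.86 ± 0.60) were lower. With the mean over all probes Fgfr2 changed sign and Fgfr1 differed by -0.575 (adjusted p = 0.256). Fgf2, the ligand added to EpiSC cultures, was higher at -1.20 and -2.53 in the iPS line and -4.84, -5.31, -4.84 and -2.16 in the ES line, a difference of 2.43 ± 0.78 (SE, adjusted p = 0.042), and was above background on 3 of 4 ES arrays. Fgf8 (-0.01) and Fgf15 (-1.28) were not called. Among LIF-STAT3 genes 2 of 11 were higher and 2 lower. Stat3, the transcription factor of the pathway, stood at 4.48 and 5.13 in the iPS line and 3.91, 4.15, 3.37 and 3.21 in the ES line, a difference of 1.15 ± 0.32 (SE, adjusted p = 0.023), while Socs3, its feedback inhibitor, stood at 3.41 and 3.20 in the iPS line and 5.32, 5.39, 5.35 and 5.11 in the ES line, a difference of -1.99 ± 0.51 (SE, adjusted p = 0.015). Stat3 differed by 0.562 (adjusted p = 0.422) with the mean over all its probes. The receptor gene Lifr was higher and the target gene Gbx2 lower, and the shared receptor subunit gene Il6st (-0.89) was not called. In the Zic family, transcription factors of the epiblast and neural plate, 2 of 5 were lower and none higher (1). Its median of -1.11 turned to 0.98 under normexp, where the median of all genes was 0.72. Socs3 was no longer called without the iPS array at passage 7 or 12 (adjusted p = 0.0538 to 0.119). Stat3 was no longer called without the iPS array at passage 12 or the ES array at passage 9 or 10 (adjusted p = 0.0505 to 0.256). Fgf2 was no longer called without the iPS array at passage 7 or 12 or the ES array at passage 5, 7 or 9 (adjusted p = 0.0847 to 0.234). Fgfr1 was no longer called without the iPS array at passage 7 or 12 or the ES array at passage 5, 9 or 10 (adjusted p = 0.0771 to 0.174). Fgfr2 was no longer called without any 1 of the 6 arrays (adjusted p = 0.0697 to 0.24).

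**Figure D4:**
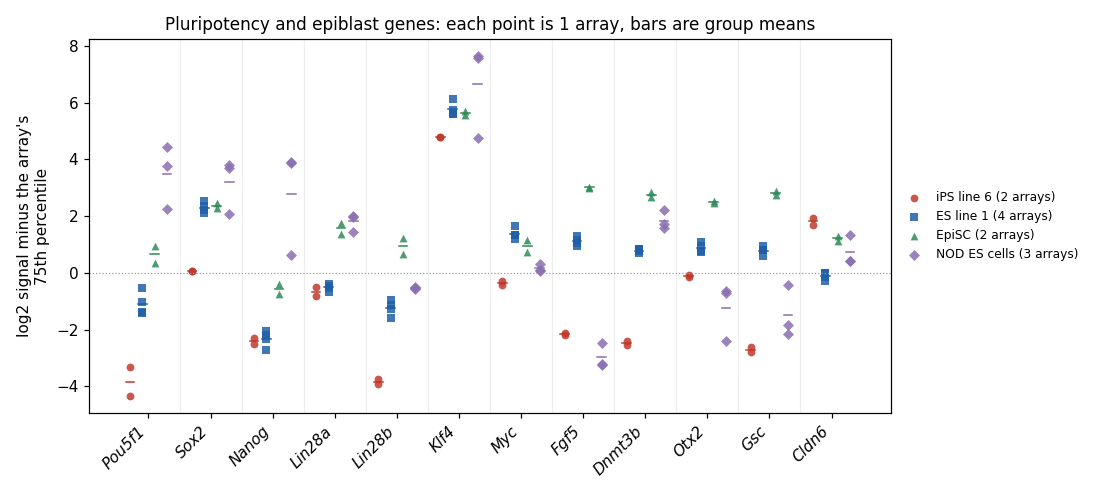
Log2 signal relative to the array's 75th percentile of pluripotency and epiblast genes in each array of the iPS line (2), ES line (4), EpiSC (2) and NOD ES cells (3). Pou5f1, Sox2, Fgf5, Dnmt3b and Gsc are lower in the iPS line than on any array of the ES line or EpiSC, Nanog and Lin28a overlap between both EpiSC-like lines, and Cldn6 is higher in the iPS line.

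Genes that respond to low oxygen formed the group with the highest median. Of 16 measured, all above background on all 6 arrays, 13 were higher and 1 was lower, where 13.8% of all genes were called higher. The median difference was 1.78, and 1.73 between the passage 7 arrays on slide 1. Many of these genes are bound near their start by hypoxia-inducible factor (HIF) at a core whose letters are ACGTG. The promoter windows of 17 genes of this group and of glycolysis held that core, and 7 of them, all of genes called higher and chosen with their values seen, are printed here as examples of where it lies. The windows of Hif1a, which was lower, and of Egln1 and Hk2, which were not called, also held it. Capitals mark ACGTG or its complement CACGT.
Slc2a1 promoter, chr4:119108679-119108744, plus strand: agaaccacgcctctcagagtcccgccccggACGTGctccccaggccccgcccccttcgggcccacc
Bnip3 promoter, chr7:138909574-138909644, minus strand: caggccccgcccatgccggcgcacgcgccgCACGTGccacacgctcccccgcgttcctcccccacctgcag
P4ha1 promoter, chr10:59323250-59323295, plus strand: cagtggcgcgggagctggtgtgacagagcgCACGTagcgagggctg
P4ha2 promoter, chr11:54100816-54100885, plus strand: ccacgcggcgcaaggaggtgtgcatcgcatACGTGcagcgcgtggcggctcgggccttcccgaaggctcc
Car9 promoter, chr4:43506978-43507025, plus strand: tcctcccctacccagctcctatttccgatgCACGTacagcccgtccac
Ldha promoter, chr7:46845710-46845803, plus strand: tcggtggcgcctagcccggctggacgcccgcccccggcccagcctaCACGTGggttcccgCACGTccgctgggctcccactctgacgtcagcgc
Slc16a3 promoter, chr11:120949010-120949066, plus strand: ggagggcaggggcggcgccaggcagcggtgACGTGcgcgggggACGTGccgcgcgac
They are RefSeq sequences of build GRCm38.p6, 5′ to 3′ on the gene's strand, and lie within 250 bases before the gene's start, outside the transcribed part. Where both cores overlap as CACGTG the run is 1 palindrome. ACGTG or CACGT stood in 10 of the 14 hypoxia promoters in the table (71.4%), in 8 of 22 glycolysis promoters (36.4%), in 19.5% of the promoters of all genes tested and in 16.6% of the whole table. The hypoxia list was assembled from known responders, so this share describes the list. The promoters of Vegfa, Adm, Higd1a and Pdk1 held no match in this window, and Vegfa, Adm and Higd1a were among the genes called higher.

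Vegfa, which encodes the growth factor of blood vessels (probe at chr17:44147967-44148026, build mm7), stood at 5.38 and 5.17 in the iPS line and 1.38, 1.43, 1.52 and 1.44 in the ES line. The spread within each line was small beside the distance between them, and the difference was 3.83 ± 0.27 (SE, adjusted p = 1.1e-05), or 14.2-fold higher. Ankrd37, a gene known chiefly as a HIF target, stood at 3.33 and 3.17 in the iPS line and -0.54, -0.85, -0.81 and -0.47 in the ES line, a difference of 3.92 ± 0.36 (SE, adjusted p = 4.1e-05). Adm (adrenomedullin) differed by 2.61 ± 0.30 (SE, adjusted p = 0.00014), Ndrg1 by 2.41 ± 0.19 (SE, adjusted p = 1.6e-05) and P4ha1, a collagen prolyl hydroxylase gene, by 2.34 ± 0.33 (SE, adjusted p = 0.00055). P4ha2 (2.14), Ddit4 (2.10), Slc2a1 (1.46), Bnip3 (1.43), Car9 (1.30), Higd1a (1.20) and Egln3 (1.12) were higher as well. Hif1a mRNA itself was lower, at 0.85 and -0.13 in the iPS line and 1.76, 1.53, 1.62 and 1.61 in the ES line, and Epas1, which encodes HIF2-alpha, was higher by 2.31. Pdk1 differed by 0.31 (adjusted p = 0.450) and Egln1 by -0.23 (adjusted p = 0.635), and neither was called. Bnip3 was no longer called without the iPS array at passage 7 (adjusted p = 0.0827). Hif1a was no longer called without the iPS array at passage 12 (adjusted p = 0.0976). Car9 and Higd1a were no longer called without the iPS array at passage 7 or 12 (adjusted p = 0.0515 to 0.117). Epas1 was no longer called without any 1 of the 6 arrays (adjusted p = 0.0548 to 0.208).

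Glycolysis, which many HIF targets serve, was higher in the iPS line at 14 of 23 genes, with none lower (1). Eno2, an enolase, stood at 4.47 and 4.37 in the iPS line and 0.46, 0.42, 0.30 and 0.26 in the ES line, a difference of 4.06 ± 0.54 (SE, adjusted p = 0.0004), and EpiSC were at -0.38 and -0.44. Slc16a3, the lactate exporter MCT4, stood at 5.80 and 5.90 in the iPS line and 3.60, 3.84, 3.39 and 3.28 in the ES line, a difference of 2.32 ± 0.28 (SE, adjusted p = 0.0002). Along the pathway, Gpi1 (2.07), Aldoa (1.62), Tpi1 (1.90), Gapdh (1.00), Pgk1 (1.62), Pgam1 (0.89), Pkm (1.71) and Ldha (0.99) were higher. Hk2 (0.24), Slc2a3 (0.34), Aldoc (-1.28), Eno3 (-1.14) and Ldhb (-0.27) were not called. These are among the brightest genes on the arrays, and the size of the shift depended on the scaling: the list's median was 0.99 with scaling to the 75th percentile, 0.26 under quantile normalization, 0.11 in the deposited value table and -0.71 under normexp. The counts higher were 9, 8 and 0 under these. The hypoxia median was 1.59, 1.42 and 0.12, and its counts 13, 13 and 0. The median of all genes was 0.12, 0.05 and 0.72 in the same order, so both lists lay below all genes under normexp. Respiratory chain subunits gave 4 higher (14.8%) and 2 lower (7.41%) of 27, near or below the 13.8% and 11.8% of all genes. Their median of 0.06 turned to -0.46 under quantile normalization. Cycs (cytochrome c) was lower, with a difference of -1.11 ± 0.20. Sterol synthesis genes gave 3 higher (18.8%) and 2 lower (12.5%) of 16. Insig1, which holds back the sterol regulator SREBP, was higher by 2.07 ± 0.27. Pgam1 was no longer called without the iPS array at passage 7 (adjusted p = 0.0845). Gapdh was no longer called without any 1 of the 6 arrays (adjusted p = 0.0564 to 0.192).

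**Figure D5:**
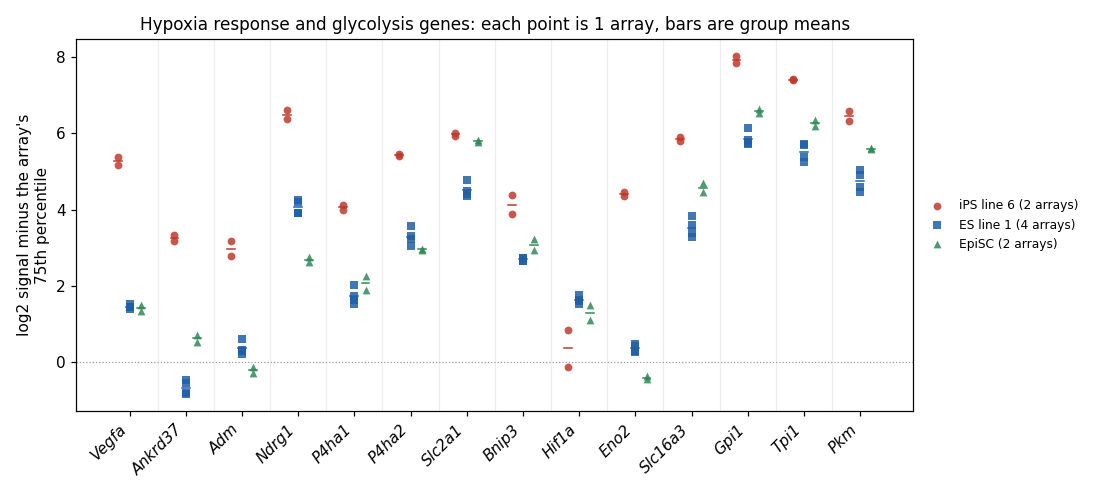
Log2 signal relative to the array's 75th percentile of hypoxia response and glycolysis genes in each array of the iPS line (2), ES line (4) and EpiSC (2). Both iPS arrays lie above all ES line and EpiSC arrays for every gene shown except Hif1a, where they lie below them.

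Genes of DNA replication and division were lower. Of 33 cell cycle genes 16 were lower and 1 was higher, with a median of -0.87. Pcna, the sliding clamp of DNA polymerase, stood at 2.01 and 1.74 in the iPS line and 4.10, 3.86, 4.08 and 4.04 in the ES line, a difference of -2.14 ± 0.31 (SE, adjusted p = 0.00063). Subunits of the replicative helicase were lower: Mcm2 (-1.94), Mcm6 (-1.56), Mcm5 (-1.48) and Mcm3 (-1.46). The kinase gene Cdk6 differed by -1.55 ± 0.28, a difference that changed sign with the mean over all its probes. The proliferation marker Mki67 stood at 2.38 and 1.99 in the iPS line and 3.42, 3.65, 3.35 and 3.44 in the ES line, a difference of -1.27 ± 0.19 (SE, adjusted p = 0.00072), whereas Top2a (0.14), Aurka (0.24) and Cdc20 (0.08) were not called. The member that was higher, Cdkn1b, encodes the inhibitor p27 and stood at 0.64 and 0.98 in the iPS line and -0.05, -0.08, -0.04 and -0.18 in the ES line. Without the iPS array at passage 12, 7 members were called lower. In EpiSC Pcna stood at 4.44 and 4.65 and Mki67 at 4.57 and 4.36, above the ES line. Cdkn1b was no longer called without the iPS array at passage 12 (adjusted p = 0.207).

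Among p53 targets and the Ink4a locus 5 of 20 were higher and 1 was lower. The pro-apoptotic gene Bbc3 (Puma) stood at 5.30 and 5.50 in the iPS line and 2.61, 2.95, 2.58 and 2.35 in the ES line, a difference of 2.77 ± 0.28 (SE, adjusted p = 6.5e-05). Aen (1.35), Perp (1.46), Pmaip1 (0.74) and Cdkn2a (1.11) were higher, Btg2, which is also an immediate early gene, was lower (-1.48), and Mdm2 (0.33) and Trp53 (0.11) were not called. Without the iPS array at passage 7 or 12, 2 were called higher, and 3 without the ES array at passage 10. The list's median of 0.39 turned to -0.81 under normexp, where the median of all genes was 0.72. Among stress genes the targets of the integrated stress response Ddit3 (Chop) and Trib3 were higher. Ddit3 stood at 4.48 and 4.12 in the iPS line and 1.58, 1.23, 1.40 and 1.47 in the ES line, a difference of 2.88 ± 0.18 (SE, adjusted p = 6.3e-06), and Trib3 differed by 2.48 ± 0.40 (SE, adjusted p = 0.001). Atf4 (0.50), Asns (0.98) and Chac1 (-0.52), other genes of that response, were not called. The heat shock chaperone genes Dnajb1 (-1.76) and Hsph1 (-0.78) were lower. In all 3 of 15 stress genes were higher and 2 lower. Perp was no longer called without the iPS array at passage 7 (adjusted p = 0.0859). Aen was no longer called without the iPS array at passage 7 or 12 (adjusted p = 0.0606 to 0.154). Pmaip1 was no longer called without the iPS array at passage 7 or 12 or the ES array at passage 10 (adjusted p = 0.0558 to 0.139). Hsph1 was no longer called without the iPS array at passage 7 or 12 or the ES array at passage 5 (adjusted p = 0.0533 to 0.157). Cdkn2a was no longer called without the iPS array at passage 12 or the ES array at passage 7, 9 or 10 (adjusted p = 0.0692 to 0.373).

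Epithelial genes were higher in the iPS line at 11 of 19, with none lower (0) and a median of 1.20. The keratin gene Krt19 stood at 4.58 and 4.42 in the iPS line and 1.69, 1.56, 1.36 and 1.58 in the ES line, a difference of 2.95 ± 0.20 (SE, adjusted p = 8.4e-06). The tight junction gene Cldn7 stood at 2.93 and 2.93 in the iPS line and 1.11, 1.02, 0.98 and 0.81 in the ES line, a difference of 1.95 ± 0.21 (SE, adjusted p = 8.8e-05), and the desmosomal gene Pkp3 differed by 2.35 ± 0.26 (SE, adjusted p = 0.00011). Epcam (1.20), Krt7 (2.88), Krt18 (2.48), Crb3 (1.77), Dsp (1.04) and Cldn3 (1.05) were higher. The adhesion gene Cdh1 (E-cadherin) was not among them: it stood at 0.88 and 0.39 in the iPS line and 0.63, 0.98, 0.85 and 0.93 in the ES line, values that overlap. Krt8 differed by 1.82 (adjusted p = 0.063). Without the iPS array at passage 12, 6 were called higher. Of 10 transcription factors that drive the mesenchymal state 3 were lower and none higher (0). Foxc1 stood at -2.31 and -3.22 in the iPS line and 0.56, 1.01, 0.69 and 0.82 in the ES line, a difference of -3.54 ± 0.37 (SE, adjusted p = 8.1e-05), Tcf4 differed by -1.79 ± 0.19 and Zeb1 by -1.56 ± 0.26. Snai1 (0.80), Snai2 (0.88) and Twist1 (-0.39) were not called. Krt7 was no longer called without the iPS array at passage 12 (adjusted p = 0.0677). Crb3 was no longer called without the iPS array at passage 7 or 12 (adjusted p = 0.0658 to 0.154). Cldn3 was no longer called without the iPS array at passage 12 or the ES array at passage 5 or 7 (adjusted p = 0.0601 to 0.279). Krt18 was no longer called without the iPS array at passage 7 or 12 or the ES array at passage 5 or 9 (adjusted p = 0.0517 to 0.15).

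The fibroblast markers, strong in both lines, gave 4 lower and none higher (0) of 22, with a median of -0.83. Col3a1 stood at 2.76 and 2.81 in the iPS line and 5.39, 5.66, 5.22 and 5.34 in the ES line, a difference of -2.61 ± 0.54 (SE, adjusted p = 0.005). Lum (-2.02), Postn (-1.88) and Pdgfrb (-1.82) were lower, and with any one array left out 1 member was called. Vim (-0.09), Col1a2 (-0.64), Dcn (-0.82) and Thy1 (1.38) were not called. Of 21 collagen chains 4 were lower (19%, against 11.8% of all genes): Col3a1, Col2a1 (-2.60), Col5a2 (-2.35) and Col9a3 (-0.93). Col18a1 was higher (1.05). With the mean over all probes Col2a1 differed by -0.67 (adjusted p = 0.382) and Postn by -0.003 (adjusted p = 0.997). Among 24 integrins and laminins 3 were higher (12.5%) and 2 lower (8.33%), below the 13.8% and 11.8% of all genes. The basement membrane gene Lamb1 stood at 6.02 and 5.49 in the iPS line and 3.63, 4.13, 3.90 and 3.96 in the ES line, a difference of 1.85 ± 0.34 (SE, adjusted p = 0.003). The integrin gene Itga1 stood at 0.95 and -0.14 in the iPS line and -4.28, -4.00, -4.25 and -2.78 in the ES line, a difference of 4.23 ± 0.77 (SE, adjusted p = 0.003), while Itga9 was lower (-1.74). The difference of Itga1 changed sign with the mean over all its probes. Col5a2 was no longer called without the iPS array at passage 12 (adjusted p = 0.102). Col18a1 was no longer called without the iPS array at passage 7 or 12 (adjusted p = 0.0538 to 0.0706). Col9a3 was no longer called without the iPS array at passage 12 or the ES array at passage 5 (adjusted p = 0.0566 to 0.188). Lum, Pdgfrb and Postn were no longer called without any 1 of the 6 arrays (adjusted p = 0.0609 to 0.285).

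Macrophage and blood markers were present in both lines and higher in the iPS line at 6 of 13, lower at 1. Csf1r, the receptor of macrophage colony-stimulating factor, stood at 1.47 and 1.35 in the iPS line and -0.69, -0.69, -0.73 and -1.15 in the ES line, a difference of 2.22 ± 0.31 (SE, adjusted p = 0.0005), and at -2.81 and -3.23 in EpiSC. Adgre1, a surface marker of macrophages, stood at 2.42 and 1.89 in the iPS line and 0.28, 0.34, 0.44 and 0.16 in the ES line, Cd68 at 2.70 and 1.85 in the iPS line and -0.30, -0.02, -0.26 and -0.23 in the ES line and Tyrobp at 2.88 and 2.37 in the iPS line and 0.22, 0.77, 0.03 and 0.65 in the ES line; all were called higher. The lysozyme genes Lyz1 and Lyz2, abundant in macrophages, were not called: Lyz2 stood at 7.74 and 7.48 in the iPS line and 6.97, 7.07, 6.92 and 6.63 in the ES line and at -2.15 and -2.06 in EpiSC. The count was 3 without the iPS array at passage 7 or the ES array at passage 5 and 2 without the iPS array at passage 12. Pf4, a platelet and macrophage chemokine gene, stood at 4.66 and 4.42 in the iPS line and 0.01, 0.56, 0.03 and 0.03 in the ES line, and Cd300lf, a receptor gene of myeloid cells, at 2.81 and 2.83 in the iPS line and -1.89, -1.62, -1.99 and -1.77 in the ES line; both were among the 15 genes raised most, by 4.38 and 4.64. Adgre1 was no longer called without the iPS array at passage 7 (adjusted p = 0.0662). Pf4 was no longer called without the iPS array at passage 12 (adjusted p = 0.0561). Cd68 was no longer called without the iPS array at passage 7 or 12 or the ES array at passage 5 (adjusted p = 0.0512 to 0.136). Tyrobp was no longer called without the iPS array at passage 7 or 12 or the ES array at passage 5 or 9 (adjusted p = 0.063 to 0.133).

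Some chemokine genes were far lower in the iPS line. Cxcl1 stood at -0.04 and -1.11 in the iPS line and 4.61, 4.85, 4.86 and 4.86 in the ES line, a difference of -5.37 ± 0.85 (SE, adjusted p = 0.001), and Cxcl10 at -1.70 and -2.52 in the iPS line and 3.29, 3.69, 3.44 and 3.46 in the ES line, a difference of -5.58 ± 0.49 (SE, adjusted p = 3e-05). Cxcl2 was well above background on all 4 ES arrays and neither iPS array, at least 79-fold lower, and Cxcl15 at least 39.4-fold lower by the same rule. Ccl4, made by macrophages, stood at -2.00 and -2.13 in the iPS line and 2.37, 2.77, 2.19 and 2.04 in the ES line, a difference of -4.41 ± 0.66 (SE, adjusted p = 0.00076), and so ran against the macrophage markers named before. Of 23 interferon response genes 5 were lower and 2 were higher. Irf1 stood at 2.06 and 1.78 in the iPS line and 4.65, 4.70, 4.57 and 4.45 in the ES line, a difference of -2.67 ± 0.47 (SE, adjusted p = 0.002), and the guanylate-binding protein genes Gbp2 (-2.35) and Gbp3 (-3.07) were lower, while Stat2 was higher (1.41) and Ifit1 (0.10) and Isg15 (-1.18) were not called. The count lower was 2 without the iPS array at passage 7 and 3 without the iPS array at passage 12. MHC class I and peptide loading genes gave 6 higher and none lower (0) of 16. H2-D1 stood at 4.67 and 4.36 in the iPS line and 3.06, 2.73, 2.83 and 2.65 in the ES line, a difference of 1.70 ± 0.32 (SE, adjusted p = 0.003); H2 genes are near-identical copies, so a probe may read several. H2-D1 differed by 1.26 (adjusted p = 0.337) with the mean over all its probes. H2-K1 (1.51), H2-Q1 (1.46) and H2-Q2 (1.61) were higher, and B2m was not called, with a difference of 1.08 (adjusted p = 0.110). Without the iPS array at passage 7 or 12 this count was 2, and the median of 1.04 turned to -0.35 under normexp. H2-Q1 was no longer called without the iPS array at passage 7 (adjusted p = 0.0638). Gbp3 and H2-Q2 were no longer called without the iPS array at passage 7 or 12 (adjusted p = 0.0663 to 0.109). H2-K1 was no longer called without any 1 of the 6 arrays (adjusted p = 0.053 to 0.182).

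Lineage genes differed in several directions. Afp, the alpha-fetoprotein of yolk sac endoderm, stood at 2.49 and 2.30 in the iPS line and -2.67, -2.83, -2.78 and -2.61 in the ES line, 34.7-fold higher, a difference of 5.12 ± 0.89 (SE, adjusted p = 0.002). The endoderm factors Gata4 (0.91), Gata6 (0.16) and Sox17 (0.41) were not called, and 3 of 16 genes of that list were higher and none lower (1). Glial and neurosecretory genes were lower at 6 and higher at 3 of 16, with a median of -1.64. Gfap, the intermediate filament of astrocytes, stood at -2.77 and -2.59 in the iPS line and 0.76, 0.10, 0.51 and 0.45 in the ES line, a difference of -3.14 ± 0.39 (SE, adjusted p = 0.00024). Mlc1 (-3.63), Aqp4 (-3.28) and Fabp7 (-3.14) were lower, and Kcnj10, a potassium channel gene of glia, stood at -1.36 and -1.42 in the iPS line and 3.69, 3.97, 3.56 and 3.61 in the ES line, 34.3-fold lower. The secretory granule gene Chgb was higher, at 5.79 and 5.77 in the iPS line and 3.03, 2.90, 2.99 and 2.79 in the ES line. Chgb differed by 0.70 (adjusted p = 0.591) with the mean over all its probes. Of 17 neuroectoderm genes 4 were lower and 1 was higher; Pax6 stood at -3.29 and -3.91 in the iPS line and -0.54, -0.41, -0.39 and -0.62 in the ES line, and the count lower was 2 without the iPS array at passage 7 or the ES array at passage 5, 7 or 9 and 1 without the iPS array at passage 12. Pax6 was no longer called without the iPS array at passage 12 (adjusted p = 0.0525).

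In the muscle and heart list 4 of 13 were higher and 1 was lower. The atrial light chain gene Myl7 stood at 3.69 and 3.74 in the iPS line and -0.84, -0.48, -1.02 and -0.73 in the ES line, a difference of 4.48 ± 0.61 (SE, adjusted p = 0.00042), and the heavy chain gene Myh7 at 3.60 and 3.65 in the iPS line and 0.53, 0.55, 0.33 and 0.33 in the ES line, a difference of 3.19 ± 0.50 (SE, adjusted p = 0.001), while Actc1 (-1.76), Nkx2-5 (0.64) and Tnnt2 (-0.48) were not called. Without the iPS array at passage 12, 2 were called higher. Hox cluster genes were lower at 5 of 35 (14.3%, near the 11.8% of all genes), with none higher (1). Their median of 0.17 was near the 0.27 of all genes. Hoxa2 was at least 12.1-fold lower, and 2 were called lower with the iPS array at passage 7 or 12 left out. The caudal gene Cdx2 was above background on no iPS array and 3 of 4 ES arrays. Trophectoderm genes gave 1 higher, Krt18, and 1 lower, Cdx2, of 12. Hoxa2 was no longer called without the iPS array at passage 7 or 12 (adjusted p = 0.0649 to 0.0718).

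None of the 5 measured genes of the Dlk1-Dio3 imprinted region, whose silencing has been used as a mark of incompletely reprogrammed iPS cells, was called. Meg3, its maternally expressed RNA, stood at 6.38 and 6.16 in the iPS line and 4.64, 4.93, 4.44 and 4.44 in the ES line, a difference of 1.66 (adjusted p = 0.476), and Dlk1 differed by 1.52 (adjusted p = 0.251), Rian by 0.72 (adjusted p = 0.845), Mirg by -0.54 (adjusted p = 0.876) and Dio3 by -1.06 (adjusted p = 0.461). Meg3 and Dlk1 did not overlap between the lines, and the tests pooled a wide spread from other groups: in the fit of the 6 arrays alone 2 of the 5 were called higher and 1 lower. That fit called more genes of every kind, 4365 of 23116 higher and 4053 lower. With all 16 arrays 0 of the 5 had an unadjusted limma p under 0.05. Other imprinted genes gave 3 higher (8.33%) and 4 lower (11.1%) of 36, below the 13.8% and 11.8% of all genes. The paternally expressed gene Usp29 (probe at chr7:6289908-6289967, build mm7) stood at 3.06 and 3.27 in the iPS line and -1.53, -1.05, -1.82 and -1.08 in the ES line, a difference of 4.53 ± 0.57 (SE, adjusted p = 0.00027). Igf2r (1.18) and Phlda2 (1.18) were higher, and Peg12 (-2.44), Mest (-1.81) and Nnat (-2.20) were lower. The count lower was 2 without the iPS array at passage 12. Mest was no longer called without the iPS array at passage 12 (adjusted p = 0.0855). Nnat was no longer called without the iPS array at passage 7 or 12 (adjusted p = 0.0798 to 0.104).

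Xist, the RNA that coats the inactive X chromosome of female cells (probe at chrX:98790940-98790999, build mm7), stood at 1.33 and 1.36 in the iPS line and -0.77, -0.76, -0.86 and -0.90 in the ES line, and at -3.03 and -2.80 in EpiSC. The difference was 2.17 ± 0.66 (SE, adjusted p = 0.033). Its antisense gene Tsix was above background on both iPS arrays and no ES array, at least 4.63-fold higher; the strand that the probe reads was not checked. Ftx (0.29), Rlim (0.25) and Eed (-0.40) were not called. Y-linked genes were measured in both lines: Ddx3y stood at -1.02 and -2.00 in the iPS line and -0.57, -0.48, -0.77 and -0.79 in the ES line and Eif2s3y at -0.66 and -0.99 in the iPS line and 0.02, 0.06, 0.01 and -0.04 in the ES line, and none of 9 was called (0 at an unadjusted limma p under 0.05). Kdm5d (-0.46), Zfy1 (0.22), Zfy2 (0.91) and Uty (0.40) were not called, of which only Zfy1 was well above background on all 6 arrays. Usp9y and Sry were above background on neither iPS array, and Uba1y on none of the 6. Germ line genes gave 1 higher (4.17%) and 2 lower (8.33%) of 24, below the 13.8% and 11.8% of all genes. Prdm1 was at least 6.26-fold and Tex19.1 at least 3.58-fold lower, both being above background on all 4 ES arrays and no iPS array. Of 11 DNA methylation enzymes 3 were lower and none higher (1): Dnmt3b, Uhrf1 (-1.18) and Tet3 (-1.22). The difference of Tet3 changed sign with the mean over all its probes. Rhox and X-linked germ line genes gave 2 higher and none lower (0) of 9, Rhox5 (2.07) and Usp26 (2.55), the latter above background on 2 of 4 ES arrays. Genes of the early cleavage stage such as Zscan4c (1.15) gave none called of 5 (0 at an unadjusted limma p under 0.05). Polycomb and trithorax genes gave 1 higher, Cbx7 (1.28), and 1 lower, Cbx2 (-1.16), of 16 (6.25% each, below the shares of all genes). Cbx2 differed by -0.132 (adjusted p = 0.752) with the mean over all its probes. Cbx7 was no longer called without the iPS array at passage 7 (adjusted p = 0.0505). Cbx2, Tet3 and Tsix were no longer called without the iPS array at passage 12 (adjusted p = 0.0877 to 0.23). Usp26 was no longer called without the iPS array at passage 7 or 12 or the ES array at passage 5, 7 or 9 (adjusted p = 0.0583 to 0.176). Rhox5 and Xist were no longer called without any 1 of the 6 arrays (adjusted p = 0.0571 to 0.212).

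Several of the genes with the largest rises were uneven between arrays. Trim55, a muscle ring finger gene and the first by size (probe at chr3:19376501-19376560, build mm7), stood at 6.15 and 4.17 in the iPS line and -3.98, -0.36, -3.76 and -1.05 in the ES line. The lines did not overlap, and the difference was 7.45 ± 1.14 (SE, adjusted p = 0.00087), or 174.5-fold higher. The ES values at passages 7 and 10 lay more than 2 log2 units above those at passages 5 and 9, and the iPS value at passage 7 lay above that at passage 12. Cdcp1, which encodes a surface protein, showed the same order at 4.34 and 2.32 in the iPS line and -5.39, -2.42, -5.34 and -1.62 in the ES line, a difference of 7.03 ± 1.24 (SE, adjusted p = 0.002). Lifr, the receptor subunit for LIF, stood at 3.13 and 0.76 in the iPS line and -5.19, -3.79, -6.79 and -2.52 in the ES line, a difference of 6.52 ± 1.19 (SE, adjusted p = 0.003). Myo1e (6.31 ± 0.89), Pdpk1 (5.49 ± 0.68) and Tmem52b (6.23 ± 0.85) had ES values at passages 7 and 10 above those at passages 5 and 9 too. The ES array at passage 7 shared slide 1 with the iPS array at passage 7, and the ES array at passage 10 shared slide 4 with NOD ES cells, in which Trim55 stood at 4.88, 5.44 and 3.67 (the first of these on slide 6). EpiSC on slide 1 read 0.96 and on slide 3 -1.53. The part of the slides in these values was not tested.

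Among other genes of the 15 raised most, Ddx25, an RNA helicase gene of germ cells, stood at 6.27 and 5.71 in the iPS line and 0.28, 1.54, 0.09 and 0.41 in the ES line. Stmn4, a neural stathmin gene, stood at 6.74 and 6.94 in the iPS line and 1.83, 1.92, 1.62 and 1.57 in the ES line, 34.4-fold higher. Tram2, of the translocation machinery of the endoplasmic reticulum, stood at 3.81 and 3.62 in the iPS line and -0.99, -0.42, -1.14 and -1.01 in the ES line, a difference of 4.60 ± 0.30 (SE, adjusted p = 7e-06). At the other end were Has2, a hyaluronan synthase gene, at -3.69 and -4.13 in the iPS line and 1.63, 1.55, 1.47 and 1.50 in the ES line, and Cyp1b1, a cytochrome P450 gene, at -2.12 and -2.91 in the iPS line and 3.10, 3.37, 3.12 and 3.19 in the ES line. They were 43.6-fold and 52.3-fold lower. Dido1 (-5.27 ± 0.28) and the noncoding RNA locus C130071C03Rik (-4.41 ± 0.84) complete the 15 lowered most. C130071C03Rik was no longer called without the iPS array at passage 12 (adjusted p = 0.0528).

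Called genes well above background in a single line were counted. Of those lower, 185 were above background on all 4 ES arrays and neither iPS array. Of those higher, 16 were so on both iPS arrays and no ES array. The counts do not compare the lines, because absence was required on fewer arrays for the 185 than for the 16. The iPS arrays were also dimmer, and 88.5% of gene spots stood well above background on the ES array at passage 10. For the genes of both counts a bound of the fold was computed against the lowest signal well above background on each array. This lowest signal was -6.45 and -5.51 on the iPS arrays and -7.02 to -5.50 on the ES arrays. Besides the genes given before, Ccdc96 was at least 75.9-fold lower, Cfap52 at least 45.5-fold and Rsph4a at least 37.7-fold; all 3 encode parts of motile cilia. Gdf10, a growth factor of the BMP family, was at least 48.2-fold lower, and Mir9-3hg, the host gene of a neural microRNA, at least 40.5-fold. In the other direction AU018091 was at least 95.7-fold and the giant cadherin gene Fat2 at least 6.77-fold higher. Fat2 was no longer called without the iPS array at passage 12 (adjusted p = 0.0602).

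Chromosomes were compared by the median difference of their genes minus that of all genes, with the chromosome taken from the probe positions in the files. With scaling to the 75th percentile chromosome 7 had the largest shift, 0.23 over 1801 genes, with 0.13 and 0.31 at passages 7 and 12 of the iPS line. Chromosomes 18 (-0.19 over 569 genes), 3 (-0.16 over 1105 genes) and 12 (-0.11 over 776 genes) lay below the median of all genes and chromosome 17 (0.11 over 1081 genes) above it. The exact permutation test over the 6 arrays (two-sided) gave p = 0.0667 for 12 of 20 chromosomes, these 5 among them, the smallest value that 2 arrays against 4 can give, and 0.111 after Benjamini-Hochberg adjustment over 20 chromosomes, so none could pass 0.05. Under normexp background correction chromosomes 3 and 18 lay at -0.004 and -0.006, chromosome 17 turned to -0.11, and chromosomes 8 (-0.22) and 6 (0.19) lay further out than chromosome 7 (0.17). In that setting the ES array at passage 7 lay with the iPS arrays, so the shifts of chromosomes 8, 6 and 7 did not separate the lines. It read -0.277, 0.238 and 0.185 on these chromosomes. The iPS array at passage 7 read -0.28, 0.245 and 0.193, and that at passage 12 read -0.204, 0.132 and 0.159. In the deposited value table the shifts of chromosomes 3, 7, 12, 17 and 18 lay between -0.08 and 0.11. The shifts without the iPS array at passage 12 were 0.14 for chromosome 7, -0.11 for chromosome 18 and -0.07 for chromosome 12. The genes of chromosome 7 that differed most were Mir9-3hg, Usp29 and Cyp2s1, a cytochrome P450 gene that stood at 4.21 and 4.30 in the iPS line and 0.01, 0.15, -0.10 and -0.19 in the ES line.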

How the data were processed

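RNA of 16 cultures was labelled with Cy3 and hybridised to 1-colour Agilent mouse arrays, per the labels' protocols. The scanner files, which the authors deposited, hold spot intensity from Feature Extraction 10.1.1.1, per the file headers; the processed signal is background-subtracted. The value table that the authors deposited is on a log2 scale and had the rank order of the uncorrected mean spot signals (Spearman 1.0000 on every array, median 6.93), so it is centred alike on all arrays and is not background-corrected; the submitters' processing notes name limma, with no version.

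Here control spots and outlier spots were left out, spots of a probe were averaged, and from log2 of each processed signal the 75th percentile of its array was subtracted. Probes well above background on at least 2 of 16 arrays were kept, and each of 23116 genes took its brightest probe. Symbols came from the supplied RefSeq table by accession (23082 probes), symbol (6582) or older symbol (3073); 8437 probes kept the file's name. limma 3.58.1 (R 4.3.3) estimated a mean for each group from all 16 arrays, moderated by empirical Bayes, with Benjamini-Hochberg adjustment over all genes. The fit was tested on simulated data. Where no array of a line had a gene well above background, only a bound is given with scaling to the 75th percentile. It is the mean of the brighter line minus the dimmer line's mean of, per array, the higher of its own value and the lowest value well above background. Values of different probes were not set against each other. A gene counted as well above background on an array when any of its probes was, so that status can rest on another probe than the printed value.

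The members and the gene lists were chosen with earlier results of these data known. Named were the 15 genes raised and the 15 lowered most among called genes above background on all 6 arrays without overlap; up to 8 a direction above background in 1 line only (of those higher, 6 are known by clone identifiers and are not named); every gene of the lists of reprogramming factors, pluripotency core, primed epiblast, Dlk1-Dio3, Y-linked and X inactivation genes; up to 6 genes of each other list; and the 3 genes of the chromosome with the largest shift. 70 other list members or genes were chosen after their values were seen. Some list members are not reported here. Alternatives were the arrays fitted, normalization, background correction, filters, probe choice, slide, passage and each array left out.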

Additional observations from a re-analysis of the deposited data

Results flagged for a closer look

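In the ES line each gene named in the report, and the summed level of the leading lists, was examined for 1 array far from the other 3, by Dixon's ratio of gap to range at its 95% critical value. Of 301 values examined 13 passed, and chance flags about 1 in 20 groups of 4. Values are log2 signal relative to the array's 75th percentile, each against the median of the other 3 ES arrays. The ES array at passage 5 was the low one for Cxcl1 (4.61 against a median of 4.86). The ES array at passage 7 was the high one for Acvr1b (1.16 against a median of 0.74), Cdh2 (1.84 against a median of 1.24), Lhx1 (0.89 against a median of 0.57) and Pf4 (0.56 against a median of 0.03). The ES array at passage 7 was the low one for Gli2 (-1.56 against a median of -1.18), Sox3 (-5.57 against a median of -4.05), Fgfr1 (-0.47 against a median of 0.19) and Top2a (0.70 against a median of 1.12). The ES array at passage 10 was the high one for Fgf2 (-2.16 against a median of -4.84) and Zfy2 (-3.20 against a median of -5.32). The ES array at passage 10 was the low one for Sfrp2 (-0.18 against a median of -0.03) and Csf1r (-1.15 against a median of -0.69). The iPS line has 2 arrays and could not be examined in this way.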

How the results depend on the processing

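The number of called genes, 5919, was 11655 without the 2 arrays that lay near another group, 2150 with slide as a fixed block and 61 with normexp background correction, under which 12353 genes had an unadjusted limma p under 0.05 and the median of all genes was 0.72. With one array left out it ranged from 2473 to 5170, the lowest without the iPS array at passage 12. It lay within 1.5 times of 5919 in the fit of the 6 arrays alone, under quantile normalization (2701 higher, 3361 lower), with normexp and quantile normalization together (6843, a setting chosen after the data were seen), in the deposited value table, with other filters on dim probes, with the mean over probes, with slide as a random block and with passage as a covariate.

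With slide as a fixed block the counts were 8 (hypoxia), 5 (glycolysis), 6 (epithelial), 2 (macrophage and blood), 9 (immediate early), 2 (ERK feedback), 5 (WNT feedback) and 5 (cell cycle). With normexp they were 0 (hypoxia), 0 (glycolysis), 0 (epithelial), 0 (macrophage and blood), 7 (immediate early), 0 (ERK feedback), 0 (WNT feedback) and 0 (cell cycle). Glycolysis gave 9 under quantile normalization and 8 in the value table, ERK feedback 4 with the mean over probes, and macrophage markers 10 without the 2 arrays near another group. With one array left out the counts ranged from 9 to 12 (hypoxia), 10 to 12 (glycolysis), 6 to 11 (epithelial), 2 to 5 (macrophage and blood), 10 to 10 (immediate early), 4 to 6 (ERK feedback), 4 to 6 (WNT feedback) and 7 to 14 (cell cycle).

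Of 209 called genes that the report names, 15 kept the call under every alternative run; 191 lost it with normexp, 101 with slide as a fixed block, 71 without the iPS array at passage 12 and 21 under quantile normalization. Differences that changed sign were, with normexp, Gdf3 (1.54), Shh (0.015), Ptch1 (0.040), Gli2 (0.54), Nrarp (1.17), Pou5f1 (0.33), Mycn (0.070), Lin28b (0.42), Zic2 (1.06), Hhex (0.12), Gbx2 (0.40), Klf2 (-0.44), Stat3 (-0.79), Slc2a1 (-0.47), Bnip3 (-0.54), Higd1a (-0.80), Egln3 (-0.32), Gapdh (-0.71), Pgk1 (-0.018), Pgam1 (-0.85), Pkm (-0.005), Ldha (-0.59), Aen (-0.62), Perp (-0.20), Pmaip1 (-0.42), Col18a1 (-0.97), Lamb1 (-0.029), H2-D1 (-0.26), H2-K1 (-0.29), H2-Q1 (-0.55), H2-Q2 (-0.42), Hoxa2 (0.49), Igf2r (-0.59), Prdm1 (1.25), Tex19.1 (1.08), Tet3 (0.32), Cbx2 (0.55), Rsph4a (0.21) and Mir9-3hg (0.12); in the deposited value table, Klf2 (-0.33), Aldoa (-0.077), Gapdh (-0.19), Pgam1 (-0.38) and Ldha (-0.072); with the mean over probes, Bmpr1a (0.32), Klf2 (-0.91), Fgfr2 (0.021), Cdk6 (0.024), Itga1 (-0.24) and Tet3 (0.26). Gdf3, Shh, Nrarp, Gbx2, Hoxa2, Prdm1, Tex19.1, Rsph4a and Mir9-3hg were above background on neither iPS array. Their differences with normexp therefore rest on background signal in the iPS line, and the change of sign says nothing of these genes. With the mean over probes 30 of the named called genes lost the call or changed sign. Among those that lost it with the same sign were Chgb (0.70), Lin28b (-0.69), Notch2 (-0.061), Fosl2 (0.84), H2-D1 (1.26), Spry2 (-0.76) and Col2a1 (-0.67). Postn (-0.003), Rif1 (0.074), Cbx2 (-0.132), Mycn (-0.362), Higd1a (0.467), Bmpr2 (-0.497), Stat3 (0.562) and Fgfr1 (-0.575) lost it too. So did Skil (-0.654), Smad3 (-0.713), Id2 (-0.768), Gli3 (-1.117), Lef1 (-1.295), Dsp (1.453), Usp26 (1.475), Adgre1 (1.710) and Rhox5 (2.069). The cause of these changes was not tested.

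No paired analysis was possible because the labels give no replicate numbers that tie iPS arrays to ES arrays; only slide 1 holds both lines, and its passage 7 arrays were compared without a test. The 6 arrays come from 1 line a side and differ in brightness, so genes near background have only bounds, and no exact test of 2 against 4 arrays can pass 0.05.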
